A study of Homo sapiens with 6 samples.

Results

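Integrin and laminin genes were followed in NCI-H69 cells after treatment with GNF5 and with its vehicle DMSO. The members were the 36 genes with symbols of the ITGA, ITGB, LAMA, LAMB and LAMC series that the list names, of 60671 genes in the count files. They comprised 18 integrin alpha chains, 8 integrin beta chains and 10 laminin chains. NCI-H69 is an established human line of neuroendocrine small cell lung cancer that grows as floating clumps. The treated group held 3 libraries of these cells after 48 h with GNF5, an allosteric inhibitor of the ABL tyrosine kinases, at 20 µM. The control group held 3 libraries of cells after 48 h with DMSO. All 6 libraries came from the same line, whose genotype is labelled WT, in serum-containing medium. The dose is in micromolar in the labels of each sample but in millimolar in the treatment protocol, a conflict that the sources used here do not settle.

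Integrins are cell surface receptors made of 1 alpha and 1 beta chain. The pair decides which matrix protein is bound: laminin, collagen, fibronectin, vitronectin or a receptor on another cell. Laminins are secreted trimers of 1 alpha, 1 beta and 1 gamma chain that form the sheet of basement membranes, and their alpha chain carries the main binding site for integrins. Bound integrins recruit talin, kindlin, focal adhesion kinase and SRC family kinases, and ABL kinases are among the enzymes activated by adhesion. In small cell lung cancer, binding to matrix through beta1 integrins is known to protect cells from drug-induced death.

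Total counts ran from 46148701 to 58771023 in the GNF5 libraries and from 56467189 to 60697602 in the DMSO libraries. At these depths 3 counts corresponded to 0.0496 to 0.0647 counts per 1000000 counts (CPM). All 16 markers of neuroendocrine small cell lung cancer were detected, with a summed level of 5459 to 5623 CPM in the GNF5 libraries and 5172 to 5273 CPM in the DMSO libraries. By the test defined below, 6 of the 16 were higher and 6 lower with GNF5, 1 and 2 of them by at least 2-fold. Over all tested genes 31% were higher and 30.7% lower. INSM1, a neuroendocrine transcription factor, had 1464 ± 45.8 CPM with GNF5 and 1403 ± 34 CPM with DMSO (SD, n = 3 each). The label of the line thus fitted the markers detected. Nothing in the labels says that the 3 libraries of a group came from separate cultures. The p-values therefore measure only the spread between these libraries, which may be technical. Below, CPM is the level used to follow a gene across libraries, and transcripts per 1000000 (TPM), which divides by exon length, is the level used to compare genes. A gene is said to have risen or fallen where edgeR's quasi-likelihood test gave a Benjamini-Hochberg adjusted p under 0.05 over the 20734 genes tested.

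After GNF5 the most abundant integrin alpha chain in TPM was ITGA3 in place of ITGA6. This order rests on the exon lengths: in CPM, ITGA3 was above ITGA6 in every library of both groups. ITGB5 and LAMB2 rose by 4.4-fold and 2.86-fold, and ITGB3 and ITGA4 fell by 1.68-fold and 1.91-fold. The most abundant integrin beta, laminin beta and laminin gamma chains, ITGB1, LAMB1 and LAMC1, differed by at most 1.1-fold between the groups, and the most abundant laminin alpha chain, LAMA3, rose 1.18-fold. Of the 36 members 28 had enough counts for a test, 7 rose, 10 fell and 11 did not pass. The called members were 60.7% of those tested, while 61.6% of all tested genes were called, 31% in the higher direction and 30.7% in the lower. The share of called members was thus near the background and is not a property of these families. The values of the GNF5 and DMSO libraries did not overlap for 19 of the 28 tested members, against 65.9% of all tested genes. A change of at least 2-fold was called for 3 higher members (ITGA9, ITGB5 and LAMB2) and 4 lower ones (ITGA5, ITGB2, ITGB7 and LAMB3). These 7 were 25% of the tested members, where 11.6% of all tested genes changed as much, 4.95% in the higher direction and 6.69% in the lower. Of the 7, 5 had a mean log2 CPM under 1. They were 55.6% of the 9 tested members at that level, where 22.3% of all tested genes changed at least 2-fold. The other 2 were 10.5% of the 19 members at a mean log2 CPM of at least 1, against 6.46% of all tested genes there. The median log2 fold change of the tested members was -0.09 and that of all tested genes 0.0057. In bulk RNA of this kind, fewer cells of a type and less RNA per cell cannot be told apart.

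**Figure D1:**
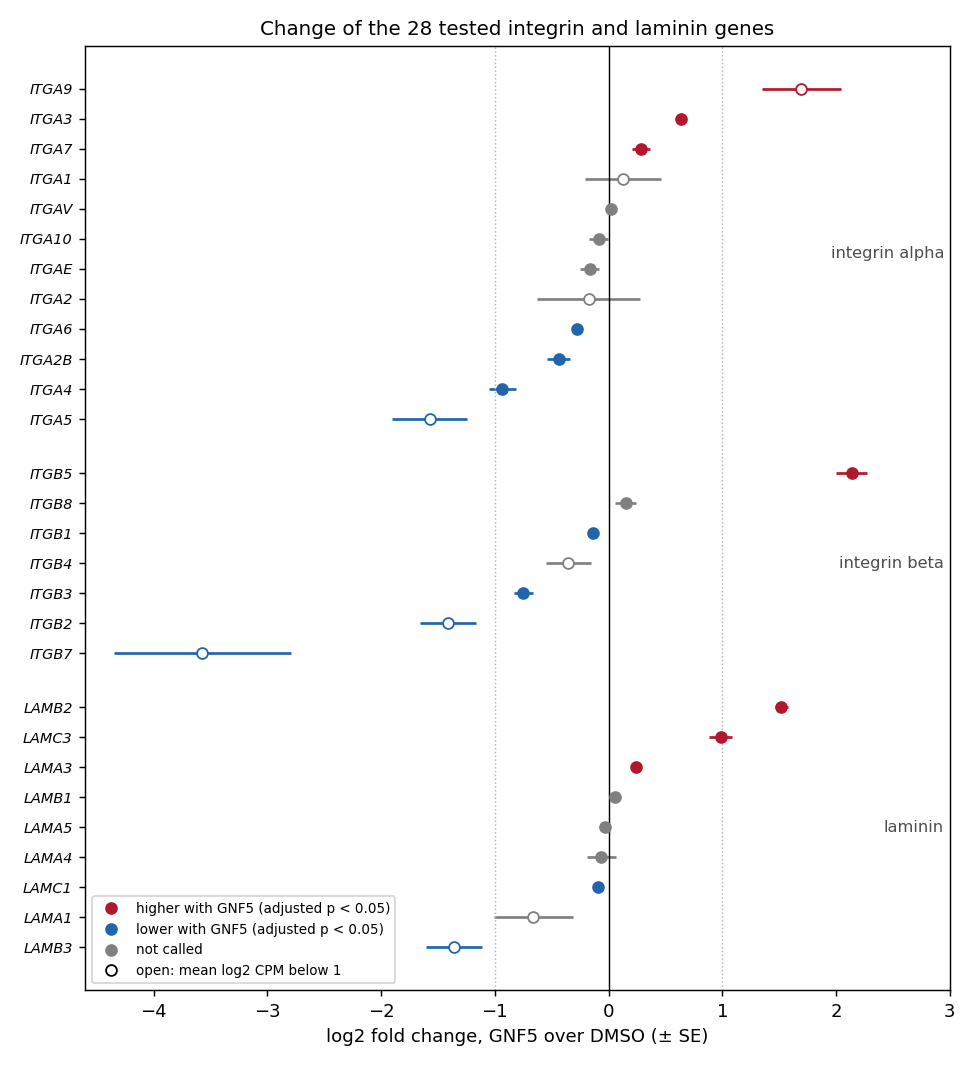
Log2 fold change, GNF5 over DMSO, with its SE for each of the 28 tested integrin and laminin genes. The points right of 0 are higher with GNF5. ITGB5 stands at 2.14, ITGA9 at 1.70 and LAMB2 at 1.52, while ITGB7 lies farthest to the left with wide error, and most abundant chains lie close to 0.

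The bases upstream of the transcription start are shown for the members with the largest called rise in each family among well counted genes, ITGB5 and LAMB2, and for LAMB3, the laminin chain that fell the most. They are RefSeq sequences of GRCh38.p14 on the minus strand, cut at the first exon base of each gene in the files, and run from chr3:124901419-124901668 for ITGB5, chr3:49133119-49133300 for LAMB2 and chr1:209652426-209652675 for LAMB3. Capitals mark matches, on either strand, to the motifs described after the sequences.
ITGB5: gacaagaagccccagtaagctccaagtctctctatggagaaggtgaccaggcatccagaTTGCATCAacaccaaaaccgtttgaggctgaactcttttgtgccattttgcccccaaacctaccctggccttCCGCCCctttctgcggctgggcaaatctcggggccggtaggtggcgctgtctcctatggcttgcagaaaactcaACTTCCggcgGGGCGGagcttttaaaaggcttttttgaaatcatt
LAMB2: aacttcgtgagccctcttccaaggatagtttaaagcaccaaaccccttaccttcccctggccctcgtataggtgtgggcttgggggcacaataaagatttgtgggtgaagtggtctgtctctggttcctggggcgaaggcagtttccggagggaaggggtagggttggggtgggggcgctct
LAMB3: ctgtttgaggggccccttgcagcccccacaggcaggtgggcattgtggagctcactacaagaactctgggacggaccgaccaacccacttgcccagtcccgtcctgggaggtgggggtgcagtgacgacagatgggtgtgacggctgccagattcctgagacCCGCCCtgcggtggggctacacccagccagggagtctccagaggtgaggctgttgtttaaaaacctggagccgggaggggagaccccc

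The ITGB5 stretch held a match to the C/EBP-ATF composite element (TGATGNAA), a match to the ETS core (GGAAGT) and 2 GC boxes (GGGCGG). RefSeq gives 3 starts for ITGB5, of which the outermost is shown, and the windows of the other starts held no C/EBP-ATF match. LAMB3 also has 3 starts, and the stretch shown held 1 GC box. The 182 bases shown for LAMB2 held none of the 9 motifs searched, while its full window of 250 bases, which reaches into the first exon of the files and is the one counted in the shares given next, held 1 GC box. The other motifs were the cyclic AMP response element (TGACGTCA), the core of the hypoxia element (ACGTG), the CAAT box (CCAAT), the AP-1 site (TGANTCA), the TATA box (TATAAA) and the E-box CACGTG, which contains the hypoxia core. Over the 250 bases before each of 35116 annotated starts, the C/EBP-ATF element occurred in 3.14%, the ETS core in 19.5% and the GC box in 42.6%. In the 32 windows that RefSeq gives for 25 of the members, they occurred in 1, 8 and 17. The cyclic AMP element was in none of the member windows and in 1.65% of all windows. The hypoxia core was in 3 member windows (18.5% of all), the CAAT box in 4 (32.0%), the AP-1 site in 2 (6.57%), the TATA box in 2 (10.7%) and the E-box in 1 (6.34%). A match of letters is a description and does not show that a factor binds there.

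The laminin-binding alpha chains ITGA3, ITGA6 and ITGA7 were all called, and the first of them moved the other way from the second. ITGA3 (ENSG00000005884, chromosome 17, 50055968 to 50090481, GRCh38), which pairs with ITGB1 to bind laminins of epithelial basement membranes, had 110, 114 and 114 CPM with GNF5 and 72.1, 71.5 and 74.3 CPM with DMSO. Every GNF5 library was above every DMSO library. Its level was 38.1 ± 0.449 TPM with GNF5 and 24.5 ± 0.394 TPM with DMSO (SD, n = 3 each), and its log2 fold change was 0.63 ± 0.037 (SE, edgeR adjusted p = 9.43e-15). ITGA6 (ENSG00000091409, chromosome 2, 172427354 to 172506459), which pairs with ITGB1 or with ITGB4, had 52.7, 53.3 and 54.8 CPM with GNF5 and 64.6, 66.7 and 63.8 CPM with DMSO. The GNF5 libraries were all lower, and the log2 fold change was -0.28 ± 0.041 (edgeR adjusted p = 9.78e-07). The ratio of ITGA3 to ITGA6, in TPM, was 1.44 ± 0.0225 with GNF5 and 0.765 ± 0.0314 with DMSO. The groups did not overlap in this ratio, for which the exact two-sided permutation p was 0.1, the smallest that 3 libraries against 3 allow. ITGA7, a laminin receptor best known from muscle, rose by less, with 5.53 ± 0.117 TPM with GNF5 and 4.53 ± 0.337 TPM with DMSO (log2 fold change 0.28 ± 0.080, edgeR adjusted p = 0.00315). The summed level of the 3 laminin-binding alpha chains was 70.1 ± 0.562 TPM with GNF5 and 61.1 ± 0.525 TPM with DMSO.

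The alpha chains that read the RGD motif of fibronectin and vitronectin behaved differently from one another. ITGAV (ENSG00000138448, chromosome 2, 186590056 to 186680901), the partner of most RGD-binding beta chains, had 53.3, 52 and 54.4 CPM with GNF5 and 51.8, 52.6 and 53.2 CPM with DMSO. The groups overlapped, and the log2 fold change of 0.02 ± 0.042 did not pass (edgeR adjusted p = 0.709). ITGA5, the classical fibronectin receptor chain, was low, at 0.187, 0.237 and 0.439 CPM with GNF5 and 0.655, 0.909 and 1.01 CPM with DMSO. It fell by 1.57 ± 0.328 on the log2 scale (edgeR adjusted p = 0.000141), with no overlap between the groups. ITGA2B, the alpha chain of the platelet fibrinogen receptor, had 4.24, 4.33 and 4.7 CPM with GNF5 and 5.58, 6.41 and 5.99 CPM with DMSO. It fell by 0.44 ± 0.104 on the log2 scale (edgeR adjusted p = 0.000562). ITGA8, a receptor of nephronectin, had 4 counts over the GNF5 libraries and 17 over the DMSO libraries and was not tested.

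ITGA4 and ITGA9 form a subfamily of their own and moved in opposite directions. ITGA4 (ENSG00000115232, chromosome 2, 181457202 to 181538940) binds VCAM1 and fibronectin and is known mostly from leukocytes and neural crest. It had 3.15, 3 and 2.56 CPM with GNF5 and 5.83, 5.01 and 5.83 CPM with DMSO. All GNF5 values were below all DMSO values, and ITGA4 fell by 0.93 ± 0.118 on the log2 scale (edgeR adjusted p = 7.71e-08). Of its exon bases, 14.8% lie opposite exons of CERKL, whose reads the stranded counting assigns to the other strand. ITGA9 (ENSG00000144668, chromosome 3, 37452115 to 37823507), a receptor of tenascin C, had 0.919, 1.1 and 0.458 CPM with GNF5 and 0.336, 0.231 and 0.191 CPM with DMSO. It rose 3.24-fold without overlap (log2 fold change 1.70 ± 0.350, edgeR adjusted p = 0.000124), on 24 to 54 counts per GNF5 library and 11 to 19 per DMSO library. TNC, the gene of tenascin C, also rose, to 172 ± 3.44 CPM with GNF5, against 93 ± 2.25 CPM with DMSO (edgeR adjusted p = 1.4e-18).

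None of the collagen-binding alpha chains was called. ITGA10, the most abundant of them, stood at 4.62 ± 0.126 TPM with GNF5 and 4.91 ± 0.438 TPM with DMSO (log2 fold change -0.09 ± 0.083, edgeR adjusted p = 0.371). ITGA1 and ITGA2 were between 0.115 and 0.76 CPM in every library, and their log2 fold changes, 0.12 ± 0.335 and -0.18 ± 0.456, were smaller than their errors. In ITGA1 5.77% of the exon bases are shared on the same strand with other genes, PELO among them. ITGA11 had 2, 7 and 21 counts with GNF5 and 5 in each DMSO library and was not tested.

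Among the beta chains, ITGB1 supplied nearly all of the RNA and the scarcer chains changed most. ITGB1 (ENSG00000150093, chromosome 10, 32900318 to 33005792), the common partner of most alpha chains, had 133, 133 and 130 CPM with GNF5 and 145, 143 and 148 CPM with DMSO. It fell slightly but without overlap (log2 fold change -0.14 ± 0.034, edgeR adjusted p = 0.000853). ITGB1 made up 88.8% ± 0.234 of the summed beta chain TPM with GNF5 and 89.0% ± 0.623 with DMSO, and in this share the groups overlapped. The summed TPM of the alpha chains that can pair with ITGB1 (ITGA1 to ITGA11 without ITGA2B, and ITGAV) was 1.35 ± 0.0369 times that of ITGB1 with GNF5 and 1.12 ± 0.0191 times with DMSO.

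ITGB5 (ENSG00000082781, chromosome 3, 124761948 to 124901418), which joins ITGAV to form a vitronectin receptor, showed the largest called rise of the members. Its values were 5.7, 5.61 and 5.33 CPM with GNF5 and 1.15, 1.42 and 1.2 CPM with DMSO. The groups lay far apart, and the log2 fold change was 2.14 ± 0.134 (edgeR adjusted p = 5.04e-14). In TPM it reached 2.82 ± 0.123 with GNF5, against 0.638 ± 0.0742 with DMSO. ITGAV RNA was in excess of ITGB5 RNA in both groups, 7.62 ± 0.416 times in TPM with GNF5 and 33.4 ± 3.54 times with DMSO.

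ITGB3 (ENSG00000259207, chromosome 17, 47253827 to 47313743), the other vitronectin-binding partner of ITGAV and the partner of ITGA2B in platelets, went the opposite way. It had 6.67, 6.21 and 7.04 CPM with GNF5 and 10.7, 11.3 and 11.5 CPM with DMSO. The GNF5 libraries were all lower, and ITGB3 fell by 0.75 ± 0.083 on the log2 scale (edgeR adjusted p = 6.55e-09). The ratio of ITGB5 to ITGB3 in TPM was 0.815 ± 0.0728 with GNF5 and 0.109 ± 0.0111 with DMSO. Of the ITGB3 exon bases, 35.7% are shared on the same strand with a readthrough model (ENSG00000259753, 1 count in all libraries). Fragments there are left out by the counting, so the level of ITGB3 and the ratio are affected to an extent that was not measured, in both groups.

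Markers of platelets and megakaryocytes were read beside ITGA2B and ITGB3. Of 7 markers only 2 were tested, and both were lower with GNF5, where 30.7% of all tested genes were lower. TUBB1 had 3 counts over the GNF5 libraries and 217 over the DMSO libraries. TREML1 had 21 counts with GNF5 and 65 with DMSO. The summed level of the list was 0.194 to 0.382 CPM with GNF5 and 1.58 to 1.82 CPM with DMSO, while PF4, PPBP, GP9 and GP1BA had 0 counts in all 6 libraries. Their part in the result was not tested.

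ITGB8 (ENSG00000105855), which joins ITGAV to release TGF-beta from its latent complex, had 10.1, 8.9 and 8.95 CPM with GNF5 and 7.46, 9.32 and 8.41 CPM with DMSO. These overlapped, and the log2 fold change of 0.15 ± 0.089 did not pass (edgeR adjusted p = 0.151). ITGB4, the hemidesmosome partner of ITGA6, stood at 0.553 ± 0.0585 TPM with GNF5 and 0.703 ± 0.0999 TPM with DMSO and did not pass either (log2 fold change -0.35 ± 0.199, edgeR adjusted p = 0.127). ITGB6, an epithelial partner of ITGAV, had 1 count in each group.

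The beta chains of leukocytes, ITGB2 and ITGB7, were low in both groups and fell. ITGB2 (ENSG00000160255, chromosome 21, 44885953 to 44931989) had 0.63, 0.647 and 0.344 CPM with GNF5 and 1.22, 1.39 and 1.7 CPM with DMSO. All GNF5 libraries were lower, a 2.66-fold fall (log2 fold change -1.41 ± 0.247, edgeR adjusted p = 1.41e-05). ITGB7, the partner of ITGA4 and ITGAE in lymphocytes, had 0, 3 and 0 counts with GNF5 and 11, 11 and 22 with DMSO (edgeR adjusted p = 0.000241). The pooled CPM was 13.2 times as high in DMSO (95% exact interval 4.24 to 66.6, counting error only). All 3 GNF5 counts came from replicate 2: the fitted log2 fold change of -3.57 became -6.86 without that library, where GNF5 is at 0 counts and the fit gives no bound, and -2.95 without GNF5 replicate 1. The call held in all 12 alternatives run for ITGB7 (edgeR or DESeq2 adjusted p 3.27e-05 to 0.00525). Of the ITGB7 exon bases, 42.3% lie opposite exons of the abundant ZNF740.

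The alpha chains that pair with ITGB2 were nearly silent. ITGAX, a complement receptor chain, had 0 counts in each GNF5 library and 5, 7 and 13 in the DMSO libraries, so it was at least 7.52-fold lower with GNF5 against a limit of 3 counts over the group. ITGAL, a receptor of ICAM proteins, had 5 counts over the GNF5 libraries and 24 over the DMSO libraries. ITGAM, another complement receptor chain, had 0 counts with GNF5 and 5 with DMSO, and ITGAD had none in any of the 6 libraries, which allows up to 0.00903 CPM. ITGAE, which binds E-cadherin with ITGB7, was the one alpha chain of this group at a higher level, with 5.08 ± 0.298 TPM with GNF5 and 5.7 ± 0.553 TPM with DMSO. It did not pass (log2 fold change -0.17 ± 0.081, edgeR adjusted p = 0.0784). CDH1, the gene of E-cadherin, rose to 65.2 ± 0.958 CPM with GNF5, against 36.1 ± 2.19 CPM with DMSO (edgeR adjusted p = 1.8e-15).

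Leukocyte markers were split, with a median log2 fold change of -0.016 over the tested ones and a lower sum with GNF5. Their summed level over 14 markers was 5.04 to 6.36 CPM with GNF5 and 8.88 to 9.39 CPM with DMSO. Of the 5 tested, PTPRC (0.35 ± 0.2 CPM with GNF5, 1.63 ± 0.124 with DMSO) and LAPTM5 (1.39 ± 0.401 CPM with GNF5, 3.99 ± 0.234 with DMSO) were lower. CSF1R was higher, and CD14 and CD79A were not called. The called markers, 1 higher and 2 lower, all changed at least 2-fold. Over all tested genes 31% were higher and 30.7% lower, 4.95% and 6.69% by at least 2-fold. CD3E, MS4A1, FCGR3A, NKG7 and TYROBP had 0 counts in all libraries. Their part in the result was not tested.

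**Figure D2:**
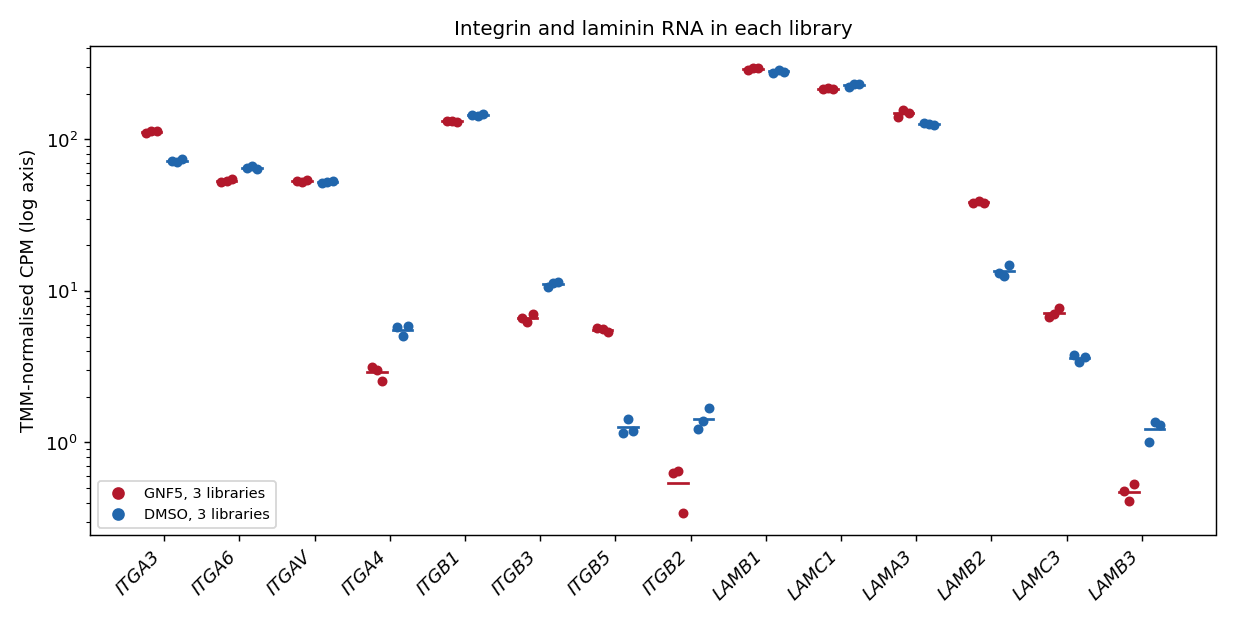
Level of 14 integrin and laminin genes in each library, in TMM-normalised CPM on a log axis, with the GNF5 libraries left of the DMSO libraries for each gene. ITGB5 lies between 5.33 and 5.7 CPM with GNF5 and between 1.15 and 1.42 CPM with DMSO. The 3 points of a group sit close together for the abundant chains and spread more for those near 1 CPM.

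The laminin chains were more abundant than the integrins, and the largest change among well counted ones was in LAMB2. Their summed level was 272.9 ± 2.11 TPM with GNF5 and 255 ± 4.62 TPM with DMSO, while the integrins summed to 187.4 ± 1.82 TPM with GNF5 and 188.7 ± 1.37 TPM with DMSO. LAMB1, LAMC1 and LAMA3 were the most abundant beta, gamma and alpha chains in both groups. LAMB1 (ENSG00000091136, chromosome 7, 107923799 to 108003187), the beta chain of most laminins, had 289, 296 and 295 CPM with GNF5 and 276, 288 and 280 CPM with DMSO. The groups did not overlap, yet the difference did not pass (log2 fold change 0.06 ± 0.032, edgeR adjusted p = 0.0997).

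LAMB2 (ENSG00000172037, chromosome 3, 49121114 to 49133118), the beta chain of laminins at the neuromuscular junction and the kidney filter, had 38.2, 39.5 and 38.3 CPM with GNF5 and 13.1, 12.6 and 14.7 CPM with DMSO. Each GNF5 library was far above each DMSO library, and the rise was 2.86-fold (log2 fold change 1.52 ± 0.057, edgeR adjusted p = 4.74e-19). LAMB2 made up 13.4% ± 0.187 of the laminin beta chain TPM with GNF5 and 5.31% ± 0.461 with DMSO. LAMB1 RNA still exceeded LAMB2 RNA, 6.46 ± 0.102 times in TPM with GNF5 and 17.8 ± 1.62 times with DMSO. LAMB2P1, a neighbouring partial copy of LAMB2, had 281 counts over the GNF5 libraries and 116 over the DMSO libraries and rose 2.68-fold (edgeR adjusted p = 2.02e-06). Reads that match both copies equally are left out by the counting, so either level may be understated.

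LAMB3 (ENSG00000196878, chromosome 1, 209614870 to 209652425), the beta chain of the laminin that anchors skin and lung epithelium, was low and fell. It had 0.477, 0.41 and 0.534 CPM with GNF5 and 1.01, 1.36 and 1.3 CPM with DMSO. The groups did not overlap, and the fall was 2.57-fold (log2 fold change -1.36 ± 0.245, edgeR adjusted p = 2.09e-05). Markers of lung and basal epithelium were also lower, with 6 of the 7 tested ones called lower, where 30.7% of all tested genes were. Their summed level was 15.8 to 18.7 CPM with GNF5 and 30.6 to 32.7 CPM with DMSO. Their part in the result was not tested.

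LAMA3 (ENSG00000053747, chromosome 18, 23689443 to 23956222) is the alpha chain that joins LAMB3 in epithelial anchoring. It had 142, 157 and 149 CPM with GNF5 and 128, 127 and 125 CPM with DMSO, and so rose without overlap while LAMB3 fell (log2 fold change 0.24 ± 0.037, edgeR adjusted p = 2.6e-06). In TPM it was 101.3 ± 17.7 times as abundant as LAMB3 with GNF5 and 33.4 ± 5.95 times with DMSO. LAMA5, the alpha chain of most adult basement membranes, stood at 11.1 ± 0.376 TPM with GNF5 and 11.4 ± 0.778 TPM with DMSO (log2 fold change -0.03 ± 0.048, edgeR adjusted p = 0.548). LAMA4, known from vessel walls, and LAMA1, the chain of the early embryo, were under 1 TPM on average in both groups and were not called (edgeR adjusted p = 0.69 and 0.104). LAMA2, the chain of muscle and nerve sheaths, had 0 counts in all 6 libraries.

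The gamma chains shifted slightly against each other. LAMC1 (ENSG00000135862, chromosome 1, 183023420 to 183145592), the gamma chain of most laminins, had 214, 218 and 215 CPM with GNF5 and 223, 234 and 232 CPM with DMSO. All GNF5 libraries were lower, by a small margin (log2 fold change -0.09 ± 0.032, edgeR adjusted p = 0.0148), but the call was lost without GNF5 replicate 3 (adjusted p = 0.0569) or DMSO replicate 3 (0.0561) and ranged from 0.003 to 0.0569 over the alternatives. LAMC3 (ENSG00000050555, chromosome 9, 131009174 to 131094473), a chain known from brain and retina, had 6.76, 7.03 and 7.69 CPM with GNF5 and 3.75, 3.42 and 3.68 CPM with DMSO. It rose 1.98-fold without overlap (log2 fold change 0.98 ± 0.103, edgeR adjusted p = 2.46e-09). Its share of the gamma chain TPM was 3.61% ± 0.235 with GNF5 and 1.74% ± 0.117 with DMSO.

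**Figure D3:**
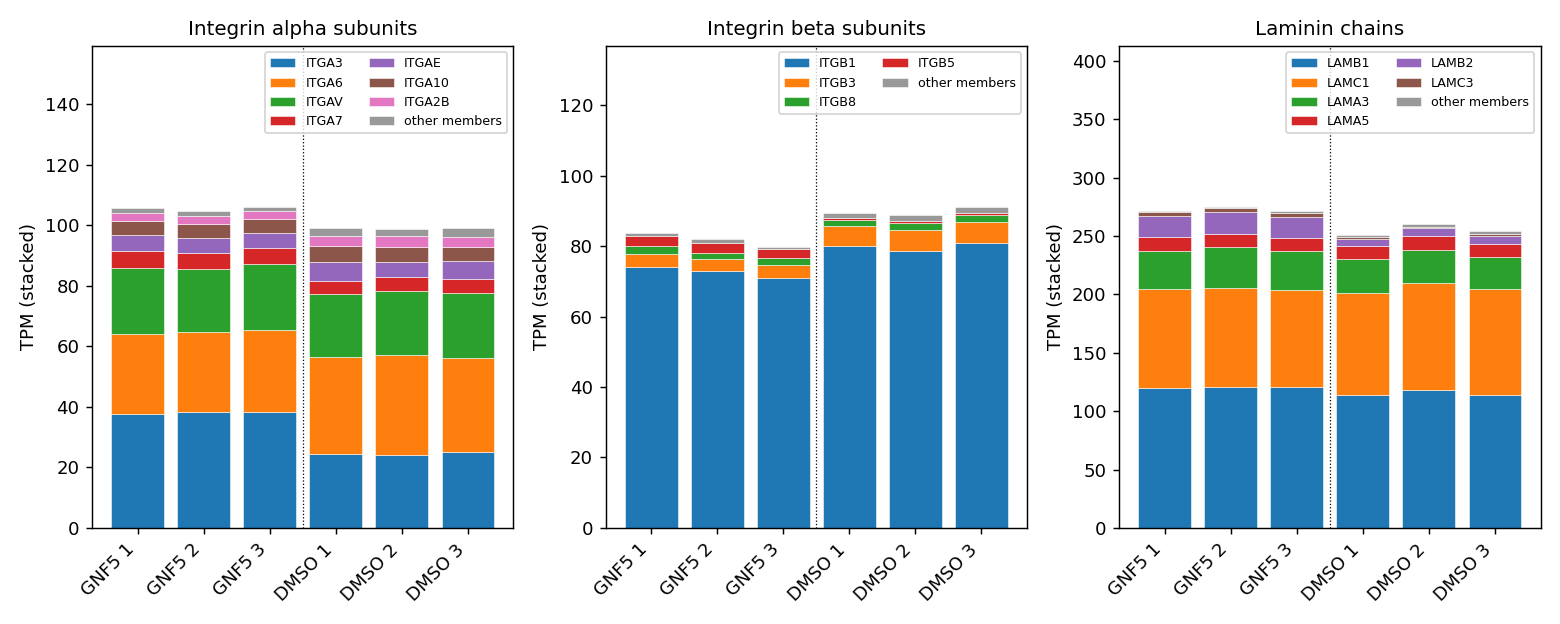
Stacked TPM of the integrin alpha, integrin beta and laminin chains in each library, with the GNF5 libraries left of the dotted line and the DMSO libraries right of it. ITGA3 takes 36.1% of the alpha chain TPM with GNF5 and 24.8% with DMSO, ITGB1 fills about the same share of the beta chains in both groups, and the LAMB2 segment is taller with GNF5.

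By class, the summed alpha chain level was 105.5 ± 0.707 TPM with GNF5 and 98.9 ± 0.0604 TPM with DMSO. The summed beta chain level went the other way, with 81.9 ± 1.95 TPM with GNF5 and 89.8 ± 1.32 TPM with DMSO. Laminin alpha chains summed to 45.8 ± 1.39 TPM with GNF5 and 40.9 ± 0.793 TPM with DMSO, and gamma chains to 87.7 ± 0.493 TPM with GNF5 and 91.5 ± 1.88 TPM with DMSO. Laminin beta chains summed to 139.4 ± 0.431 TPM with GNF5 and 122.6 ± 2.33 TPM with DMSO. None of these 5 sums overlapped between the groups, each with the exact two-sided permutation p of 0.1 that is the smallest possible here. ITGA6 supplied 25.1% ± 0.23 of the alpha chain TPM with GNF5 and 32.4% ± 0.844 with DMSO, and ITGAV 20.3% ± 0.377 with GNF5 and 21.4% ± 0.189 with DMSO. Thus the 3 leading alpha chains in TPM were the same in both groups, in a different order.

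The machinery around the integrins was read from 8 lists of 138 genes in all, chosen with results of these data known. Of the 124 tested, 53 rose and 40 fell, or 75% called, against 61.6% of all tested genes. Of all tested genes 31% rose and 30.7% fell. At a mean log2 CPM of at least 1, 73.6% of all tested genes were called. Most genes of the lists were at or over 1 TPM, 107 of the 138 with GNF5 and 109 with DMSO. The share of 75% is therefore not read as a property of these lists. For the genes of these lists, a rise or fall given with ± is a log2 fold change with its SE. Among talins, kindlins and other adhesion adaptors, 11 of 27 tested genes rose and 13 fell, with a median log2 fold change of -0.09. ZYX, the tension-sensing LIM protein zyxin, rose 2.36-fold to 45 ± 3.18 CPM with GNF5, against 19.1 ± 0.852 CPM with DMSO (edgeR adjusted p = 1.88e-17). TNS3, a tensin that binds integrin tails, fell by 0.75 ± 0.044 on the log2 scale. KANK2, a talin-binding protein of the adhesion rim, fell by 0.50 ± 0.040. The talins and kindlins, which switch integrins on, were split: TLN1 fell by 0.15 ± 0.033 and FERMT3 by 1.07 ± 0.278, while TLN2 (0.54 ± 0.084), FERMT1 (0.21 ± 0.075) and FERMT2 (0.51 ± 0.062) rose.

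Of 11 adhesion kinases 5 rose and 1 fell, with a median log2 fold change of 0.08. The called share was 54.5%, against 61.6% of all tested genes, of which 31% rose and 30.7% fell. YES1, a SRC family kinase, rose by 0.77 ± 0.075 on the log2 scale, PTK2, which encodes focal adhesion kinase, by 0.23 ± 0.035, and ABL2, a target of GNF5, by 0.24 ± 0.047. PAK1, a kinase activated by RAC, fell by 0.21 ± 0.038. SRC and FYN were not called (edgeR adjusted p = 0.269 and 0.837). ABL1, the other kinase that GNF5 inhibits, rose by 0.09 ± 0.032 on that scale (edgeR adjusted p = 0.0173), a call that some alternatives lost.

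The partners of laminin in the basement membrane mostly fell, with 10 of 17 tested genes lower and 4 higher and a median log2 fold change of -0.25. Over all tested genes 30.7% were lower and 31% higher. FBLN1, the matrix glycoprotein fibulin 1, fell to 20.2 ± 2.03 CPM with GNF5, against 56.3 ± 2.78 CPM with DMSO (log2 fold change -1.48 ± 0.058, edgeR adjusted p = 2.98e-18). AGRN, a heparan sulfate proteoglycan that binds laminin, fell by 0.47 ± 0.047, COL4A6, a type IV collagen chain, by 0.38 ± 0.042, and FBLN2 by 0.93 ± 0.115. Those that rose were SMOC1 (0.24 ± 0.035), the perlecan gene HSPG2 (0.36 ± 0.049), COL4A3 and the low COL15A1 (2.20 ± 0.415). NID1, whose product nidogen links laminin to collagen IV, had 98 ± 3.03 CPM with GNF5 and 97.6 ± 2.2 CPM with DMSO and was not called. COL4A1 and COL4A2, the usual type IV collagen chains, had 0 counts in all libraries.

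Among the other extracellular ligands of integrins, 8 of 20 tested genes rose and 4 fell, with a median of 0.04. The called share of 60% was near the 61.6% of all tested genes. Besides TNC and CDH1, THBS1, which encodes thrombospondin 1, rose 2.03-fold to 18 ± 0.445 CPM with GNF5, against 8.88 ± 0.4 CPM with DMSO. TGFB2, a growth factor whose relatives ITGAV integrins release, fell by 0.70 ± 0.047. FN1 and VTN, the genes of fibronectin and vitronectin, were under 1 TPM in both groups and were not called, and VCAM1 had 1 count in all. The non-integrin laminin receptors mostly rose, with 11 of 19 higher, 4 lower and a median of 0.35, where 31% of all tested genes were higher. All 4 syndecans, which bind laminin through heparan sulfate, were higher: SDC3 rose 2.94-fold to 60.2 ± 1.12 CPM with GNF5, against 20.5 ± 0.709 CPM with DMSO (edgeR adjusted p = 2.58e-21), SDC1 by 0.69 ± 0.050, SDC2 by 0.56 ± 0.035 and SDC4 by 0.36 ± 0.044 on the log2 scale. The hyaluronan receptor CD44 rose by 0.49 ± 0.040 and the laminin receptor BCAM by 0.41 ± 0.057. DAG1, which encodes dystroglycan, fell by 0.35 ± 0.037, and the glypican GPC1 by 0.47 ± 0.052.

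Tetraspanins and other membrane partners of integrins were split, with 4 of 10 higher and 4 lower and a median of 0.07. Over all tested genes 31% were higher and 30.7% lower, which is the background for each list count given here. SLC3A2, the heavy chain of amino acid transporters that also binds integrin beta tails, rose 4.13-fold to 1046 ± 105 CPM with GNF5, against 253 ± 3.96 CPM with DMSO (edgeR adjusted p = 8.78e-12). TSPAN4 fell by 0.45 ± 0.050, CD47, a partner of ITGB3, by 0.28 ± 0.035, and BSG, which encodes basigin, by 0.23 ± 0.038. Of the 7 tested hemidesmosome and keratin genes 3 rose and 2 fell, with a median of -0.04. KRT18, a keratin of simple epithelia, rose by 0.67 ± 0.044 and the linker PLEC by 0.23 ± 0.037. The calls of CD151 (0.12 ± 0.047), a tetraspanin partner of ITGA3 and ITGA6, and KRT8 (-0.08 ± 0.035) were lost in 7 and 8 of their 13 alternatives. Integrin trafficking genes were higher for 8 of 15 and lower for 2, with a median of 0.30. The called share of 66.7% was near the 61.6% of all tested genes. The higher ones included RAB5A (0.60 ± 0.050) of early endosomes, RABGAP1 (0.40 ± 0.042), which acts in integrin recycling, and RAB11FIP1 (0.30 ± 0.041), an effector of RAB11. The list also counted RCAN1 (0.52 ± 0.033), which is known mainly as a calcineurin regulator.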

How the data were processed

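RNA sequencing libraries of NCI-H69 cells, 3 with GNF5 and 3 with DMSO, were grouped by their treatment labels. Members and lists were chosen with earlier results of these data known. The deposited values are unnormalised gene counts. The authors made them, per the file headers, with featureCounts 1.6.1 from read pairs, reverse-stranded, over exons of the Ensembl 101 annotation of GRCh38; in its default, reads matching several places or genes are left out. STAR, Trim Galore, DESeq2, HTSeq and GRCh37 appear, with no version or role, in the submitters' processing notes, and the headers were followed where these differ. Each file held 60671 gene rows, all of them genes. Here, edgeR 4.0.16 (R 4.3.3) was run with TMM normalisation, its default expression filter (20734 genes kept), the robust quasi-likelihood test without covariates and Benjamini-Hochberg adjustment, with calls at 0.05. It was tested on simulated counts. The SE is the size of the log2 fold change over the square root of F. CPM uses TMM effective library sizes, and TPM the exon lengths of the files. Sums and ratios were compared by exact permutation, and the exact interval of pooled counts was made with scipy 1.17.1. Chi-square per degree of freedom between replicates was 3.02 to 8, above sampling noise. Floors and intervals cover counting error only. Values of every library are given for members called at a log2 fold change of at least 0.58 either way and a mean log2 CPM of at least 0, and for the 3 members of highest TPM in each class. Lists name up to 4 called genes of lowest p at a mean log2 CPM of at least 1, and ABL1 and ABL2. Other named genes were chosen after their values were seen. Alternatives were other scalings, DESeq2 1.42.0, other filters, a replicate block and leaving out each library. No protein sequences were used here, and RefSeq start windows were matched by symbol. A gene of the lists is not reported here by name.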

Additional observations from a re-analysis of the deposited data

How the results depend on the processing

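Scaling by RLE size factors, upper-quartile factors or library totals, DESeq2, no expression filter, a stricter filter (at least 1 CPM in at least 3 libraries) a replicate block and leaving out each library were compared with the values above. Of 358 such values for single members 346 kept their direction and their side of the threshold. So did 410 of 429 for ABL1 and the up to 4 called genes of lowest p in each adhesion list, where 19 calls were lost. The calls of other genes named in the text were not compared in this way. With the stricter filter, which left 22 members to test, 2 members were at least 2-fold lower instead of 4, 2 instead of 3 at least 2-fold higher, 6 instead of 7 higher and 8 instead of 10 lower. Without 1 library, 7 to 8 members were higher, 9 to 11 lower, 3 to 4 higher and 4 to 5 lower by at least 2-fold, and over all genes 5926 to 6200 were higher and 5969 to 6212 lower. The sign turned only in members that were not called: ITGAV with upper-quartile factors (log2 fold change -0.0064), and, with 1 library left out, ITGA1 (-0.17 to 0.54, below 0 without GNF5 replicate 2 or DMSO replicate 3), ITGA2 (-0.53 to 0.21, above 0 without GNF5 or DMSO replicate 3), LAMA4 (-0.13 to 0.031, above 0 without DMSO replicate 3) and LAMA5 (-0.077 to 0.014, above 0 without DMSO replicate 2). ITGAE passed with upper-quartile factors (adjusted p = 0.0407) and without DMSO replicate 2 (0.0141), and ITGB8 without DMSO replicate 2 (0.0478). LAMC1 lost its call without GNF5 or DMSO replicate 3, as given above. ABL1 lost its call with upper-quartile factors and without GNF5 replicate 3, DMSO replicate 1 or DMSO replicate 3. The causes were not tested. Libraries with the same replicate number did not deviate together (r of -0.116, -0.0358 and 0.00356). This cannot tell whether they were prepared as pairs, since paired libraries need not share a visible deviation. With the replicate block 7 members were higher and 10 lower, 3 and 4 of them by at least 2-fold, and 6279 and 6196 of all genes were higher and lower. The median log2 fold change of all genes lay between -0.020 and 0.011 across scalings. Depth limits the scarce members: the SE of the log2 fold change was 0.335 for ITGA1, 0.456 for ITGA2, 0.350 for LAMA1 and 0.779 for ITGB7.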

Other observations

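Transcripts next to members were read in the same test. ITGA9-AS1, which lies opposite ITGA9, rose with it, with 52, 43 and 53 counts with GNF5 and 25, 24 and 36 with DMSO (log2 fold change 0.95 ± 0.264, edgeR adjusted p = 0.00278). PDK1-AS1, opposite the end of ITGA6, had 4, 4 and 9 counts with GNF5 and 93, 98 and 96 with DMSO, a fall of 3.90 ± 0.311 on the log2 scale (edgeR adjusted p = 8.96e-12), where ITGA6 itself fell by 0.28. ITGB8-AS1 and ITGB1-DT were not called (edgeR adjusted p = 0.545 and 0.431). ITGB1P1, a processed copy of ITGB1, had 610 counts over the GNF5 libraries and 775 over the DMSO libraries and was not called (edgeR adjusted p = 0.13).

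Markers of fibroblasts and endothelium were mostly lower with GNF5, where 30.7% of all tested genes were called lower. Over 10 fibroblast markers the summed level was 69.4 to 77.3 CPM with GNF5 and 129 to 135 CPM with DMSO, with 1 of 6 tested genes higher and 4 lower. Over 8 endothelial markers it was 16.6 to 21.3 CPM with GNF5 and 56.3 to 65.6 CPM with DMSO, with all 3 tested genes lower, while KDR and EMCN had 0 counts in all libraries.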
